A study of Mus musculus with 4 samples.

Results

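The cells described here were 104 pancreatic leukocytes that carried transcripts of the lectins Cd209a, Clec10a or Mgl2, the usual surface markers of type 2 conventional dendritic cells (cDC2), out of 10794 pancreatic cell barcodes kept and 21074 barcodes listed in all 4 libraries of the study. The control library contributed 50 cells and the CD4-Cre library 54. Membership was decided on the measured transcripts alone. A barcode with fewer than 500 genes, or with over 10% of its counts from mitochondrial genes, was left out. A barcode also needed at least 2 unique molecular identifiers (UMIs, each counted as 1 captured transcript) over Cd209a, Clec10a and Mgl2, and at least 20 over the MHC class II genes H2-Aa and H2-Ab1. It could carry no UMI of Xcr1, Clec9a or the Cd3 genes, fewer than 5 of the C1q genes and fewer than 2 of Ace and Ear2. They are called lectin-rule cells below, because their other genes fit the cDC2 name only in part.

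Both groups were female mice with floxed alleles of Ocab, the older name of Pou2af1, a transcriptional coactivator best known from B cells. The control group was Ocabfl/fl and the other group Ocabfl/fl.CD4Cre, in which Cre recombinase is driven by Cd4 regulatory sequences and acts mainly in T cells. Whether Cre was active in lectin-rule cells, which are not T cells by their rule, was not tested. Pancreatic CD45+ cells were sorted from pre-diabetic animals aged 12 weeks, with 4 mice in each group, and the strain is not given in the sources used here. Each genotype gave 1 pancreas library, so there was no replicate check, no test between genotypes was possible, and every difference compares 2 libraries. Intervals are 95% intervals for counting error only and leave out the spread between animals. UMIs of a gene also gather in a few cells, which such intervals do not cover.

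Conventional dendritic cells take up antigen in tissues, carry it to lymph nodes and present it to T cells. The cDC2 branch presents mainly on MHC class II to CD4+ T cells, while the cDC1 branch, marked by Xcr1 and Clec9a, cross-presents on MHC class I. Both depend on Flt3, the receptor for a dendritic cell growth factor, and carry the transcription factor Zbtb46, which monocytes and macrophages lack or hold at low levels. Telling cDC2 from monocyte-derived cells is difficult, since lectins, MHC class II and Sirpa are shared between them. In the islets of diabetes-prone mice, resident macrophages and infiltrating dendritic cells are the antigen-presenting cells that T cells meet.

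The pancreas libraries held 20807342 UMIs (control) and 32798133 UMIs (CD4-Cre), with medians of 3655.5 and 3680 UMIs per kept barcode. Lectin-rule cells were deeper, with medians of 12605.5 UMIs (range 1973 to 24459) in the control and 13037.5 (range 1423 to 28564) in CD4-Cre. They summed to 617200 and 721299 UMIs. The 2 pancreas libraries shared 46 barcodes, no cell was a member in both, and 2 members had a barcode that the other library also listed. The targeted gene was checked first. Pou2af1 (chromosome 9) was seen in 38 of 2284 control T cells (1.66%) and in 10 of 4047 CD4-Cre T cells (0.247%), and in 51.6% and 51.0% of B cells. No control lectin-rule cell held a Pou2af1 UMI, which allows a level of up to 4.86 CPM (counts scaled by the summed UMIs of the class). In CD4-Cre, 5 of 54 did, with 14 UMIs between them. All 5 were among 8 CD4-Cre members with 2 or more UMIs of B cell markers (2, 2, 2, 23, 44, 55, 97 and 116 UMIs), and the 46 other CD4-Cre members held no Pou2af1 UMI. No control member reached 2 B cell UMIs. The summed B cell list was 110 CPM in the control and 799 CPM in CD4-Cre, and 96.4 CPM without those 8 cells. T cell markers outside the rule stood at 16.2 and 88.7 CPM and NK cell markers at 90.7 and 159 CPM. The part of these B, T and NK cell transcripts in the results below was not tested, apart from values given without the 8 cells.

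The lectins that chose the cells were uneven among them. Cd209a, a C-type lectin of the DC-SIGN family, ranged from 0 to 63 UMIs per control cell with a median of 5, and from 0 to 73 with a median of 4 in CD4-Cre. It was detected in 76% of control and 66.7% of CD4-Cre members. Mgl2, the galactose-binding lectin CD301b, had a median of 6.5 UMIs in both libraries (highest 56 and 64) and was detected in 86% and 75.9%. Clec10a, its neighbour CD301a, was sparser, with a median of 1 UMI in both and detection in 68% and 63.0%. All 3 lectins were present together in 23 control and 21 CD4-Cre cells. Mgl2 was the sole lectin in 4 and 8 cells, and Cd209a in 2 and 7. Mgl2 (chromosome 11, 70130329 to 70137550) and Clec10a (70156197 to 70170834) are adjacent paralogs. Cd209a (chromosome 8, 3743397 to 3748984) lies near Cd209d and Cd209c. Counts can be split between such copies, so values of single lectins are uncertain. The positions are those of GENCODE M21 on GRCm38. H2-Aa, which the rule also used, ranged from 13 to 461 UMIs per control cell (median 277) and from 11 to 465 in CD4-Cre (median 288.5).

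At the edge of the rule, 5 control and 4 CD4-Cre members had exactly 2 lectin UMIs, while 13 and 15 barcodes that met every other limit had 1 and were left out. Many lectin-bearing barcodes failed a limit set by other cell types. The C1q limit alone removed 41 control and 33 CD4-Cre barcodes, the Ace and Ear2 limit 22 and 26, the Cd3 limit 10 and 24, and the Xcr1 and Clec9a limit 9 and 18. No member had 4 C1q UMIs in either library, and no excluded barcode had 5 or 6, so the C1q limit fell in a gap.

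Genes of conventional dendritic cells that the rule did not use were present in part of the cells. A UMI of Flt3 or Zbtb46 was found in 28 of 50 control members (56%) and 28 of 54 CD4-Cre members (51.9%). Flt3 was seen in 32% (95% exact binomial interval 19.5 to 46.7) of control and 35.2% (22.7 to 49.4) of CD4-Cre members. The share was 80% and 71.1% in cDC1 cells, 2.60% and 4.00% in C1q macrophages, 0.788% and 0.593% in T cells and 1.06% and 1.19% in B cells. T and B cells, which set the background of free RNA, had median depths of 3488 and 3580 and of 3551.5 and 3401 UMIs. After each cell was thinned to 3000 UMIs, Flt3 remained in 14.3% and 21.2% of lectin-rule cells and in no C1q macrophage. Zbtb46 was seen in 42% and 33.3% of members, and in 20.4% and 9.62% after thinning. Both shares lay below those of cDC1 cells in the same libraries and above the T and B cell background. After thinning, the gap to cDC1 cells was smaller. Flt3 was then in 33.3% and 23.3% of cDC1 cells and Zbtb46 in 30% and 20.9%, with intervals that overlapped those of lectin-rule cells. Sirpa, the receptor that separates cDC2 from cDC1, was detected in 84% and 87.0% of members, in 13.3% and 15.6% of cDC1 cells and in 80.5% and 86% of C1q macrophages.

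Of the 26 macrophage markers, 6 were at 0 UMIs in all 104 cells, namely Folr2, Lyve1, Pf4, Cbr2, Stab1 and Vsig4, while 8 reached 100 UMIs over the 2 libraries. Among the latter, Selenop was found in 58% and 55.6% of members, and Cd68, a lysosomal protein of many myeloid cells, in 94% and 94.4%. Apoe, the abundant lipid carrier of macrophages, had 4 UMIs in the control cells and 119 in CD4-Cre, where 1 cell held 78.2% of them. Myeloid genes shared with monocytes were abundant. Lyz2, the macrophage and monocyte lysozyme, ranged from 0 to 609 UMIs per control cell (median 51.5) and from 0 to 556 in CD4-Cre (median 95). Its copy Lyz1 is nearly identical, so the split between the 2 genes is uncertain. Flt3 and Zbtb46 are shared with cDC1 cells. Of 16 measured cDC2 genes outside the rule, 3 were at least 2-fold higher than in C1q macrophages in both libraries and 1 lower. Over all genes 2.54% were higher and 5.15% lower. The list had median log2 ratios of 0.05 and -0.02. It summed to 3961 and 3948 CPM, against 4928 and 5057 CPM in macrophages. The marker check thus found dendritic cell genes in some cells and left others with no Flt3 or Zbtb46 UMI. The cDC2 list did not set lectin-rule cells apart from C1q macrophages, and no other cell type name is given.

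The members split along Fcrls, an Fc receptor-like gene best known from microglia. The split was seen in the values and then described, and nothing about it was tested. In the control library, 20 of 50 members (40%, interval 26.4 to 54.8) had 4 to 56 Fcrls UMIs and the other 30 had 0. In CD4-Cre, 24 of 54 (44.4%, 30.9 to 58.6) had 6 to 44 UMIs and the others 0 to 3, with 7 cells between 1 and 3. Cells with 4 or more Fcrls UMIs held more lectin, with median sums of 39 and 28 UMIs, against 10 and 11 in the main remaining group. They were also deeper than that group, at medians of 13949 and 15028 UMIs against 12233 and 10761. The lectin and Lyz2 medians given here are not scaled to depth. Lyz2 had medians of 159.5 and 249.5 UMIs with Fcrls and 7 and 23.5 without. A UMI of Flt3 or Zbtb46 was found in 7 of 20 and 7 of 24 cells with Fcrls, and in 20 of 27 and 17 of 26 of the main remaining group.

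**Figure D1:**
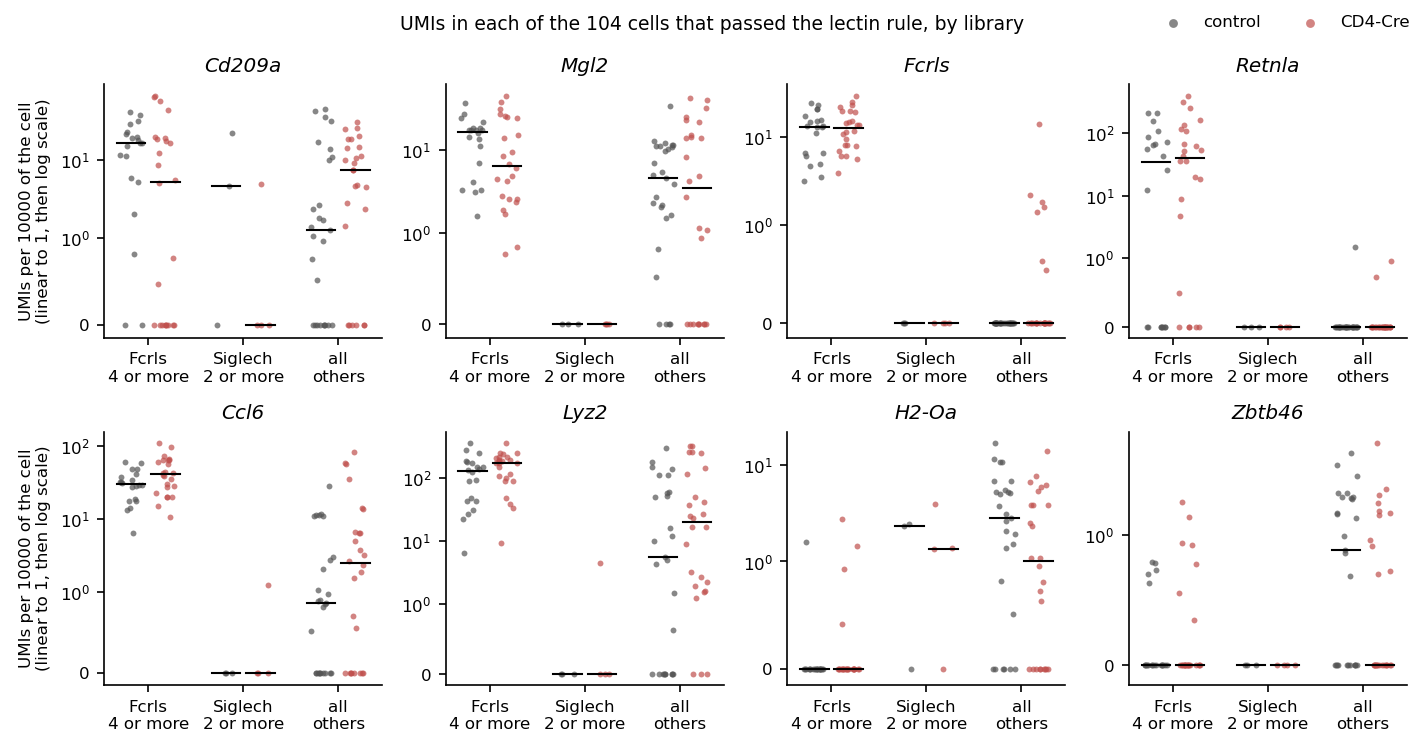
Each point is 1 of the 104 lectin-rule cells, placed by its UMIs of a gene per 10000 UMIs of the cell (linear below 1, log scale above), with cells grouped by Fcrls (4 or more UMIs), Siglech (2 or more UMIs) or neither, control in grey and CD4-Cre in red; bars are medians. Retnla, Ccl6 and Lyz2 are high in the Fcrls cells of both libraries, and H2-Oa is at a median of 0 there. Zbtb46 is at a median of 0 in the Fcrls and Siglech cells of both libraries and in the remaining CD4-Cre cells. Mgl2 is at 0 in the Siglech cells.

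Retnla is a secreted resistin-like protein induced by type 2 cytokines in myeloid cells. Its level was 6295 CPM in control cells with Fcrls and 6.13 CPM in the main remaining cells, and at 8764 and 7.19 CPM in CD4-Cre. Not all Fcrls cells carried it, since UMIs were found in 12 of 20 and 19 of 24. Ccl6, a chemokine of myeloid cells, was at 3376 against 340 CPM in the control and 4618 against 1108 CPM in CD4-Cre. Fn1, which encodes fibronectin, was at 849.6 against 24.5 CPM and 1956 against 46.8 CPM. Lpl, the lipoprotein lipase, was at 490.1 against 9.20 CPM and 509.5 against 21.6 CPM. The growth factor receptor Fgfr1, the adaptor Dok2, the extracellular matrix protein Ecm1 and the homeodomain gene Hopx were higher with Fcrls in both libraries as well. Of 1695 genes with enough counts, 77 were at least 2-fold higher and 66 at least 2-fold lower in Fcrls cells than in all other members of both libraries. These counts describe a split that was chosen on the same cells.

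The cells without Fcrls carried more transcript of H2-Oa, Havcr2, H2-M2 and Epcam. H2-Oa encodes a chain of H2-O, which restrains the peptide exchange factor H2-DM in B cells and dendritic cells. It stood at 7.26 CPM with Fcrls and 417.1 CPM in the main remaining cells of the control, and at 22.5 and 215.8 CPM in CD4-Cre. Havcr2, the inhibitory receptor TIM-3, was at 3.63 against 220.8 CPM and 5.00 against 111.5 CPM. The nonclassical MHC gene H2-M2 was at 0 UMIs with Fcrls in the control, against 622.5 CPM. Epcam, the adhesion molecule also carried by skin and gut dendritic cells, was found in 0 of 20 and 2 of 24 cells with Fcrls and in 14 of 27 and 7 of 26 of the main remaining group. Across the 104 cells, on log-transformed levels per cell, Pearson's r of Fcrls was 0.83 with Ccl6, 0.79 with Retnla, 0.73 with Fn1 and 0.63 with Lyz2, and -0.61 with H2-Oa and -0.62 with Ms4a6c. Cd209a ran with its neighbour Cd209c (r = 0.66), less with Mgl2 (0.38) and little with Fcrls (0.18). These are descriptions over cells of 2 libraries, which share library and depth.

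Fcrls was not particular to lectin-rule cells. At least 4 Fcrls UMIs were found in 34.1% of control and 36.4% of CD4-Cre Ace and Ear2 monocytes, in 9.09% and 20% of C1q macrophages, and in 3.33% and 4.44% of cDC1 cells. T cells showed it in 0.744% and 1.09% and B cells in none. The summed monocyte marker list was higher in Fcrls cells (2229 and 3347 CPM) than in the main remaining cells (1460 and 1327 CPM). Fn1 is in this list, and its levels given above cover all of that difference in the control and most of it in CD4-Cre. The list was lower in Fcrls cells than in Ace and Ear2 monocytes (5927 and 5257 CPM). The conventional dendritic cell list was at 1677 and 1396 CPM with Fcrls, 2039 and 1550 CPM in the main remaining cells, 3434 and 2750 CPM in cDC1 cells and 647 and 874 CPM in C1q macrophages.

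**Figure D2:**
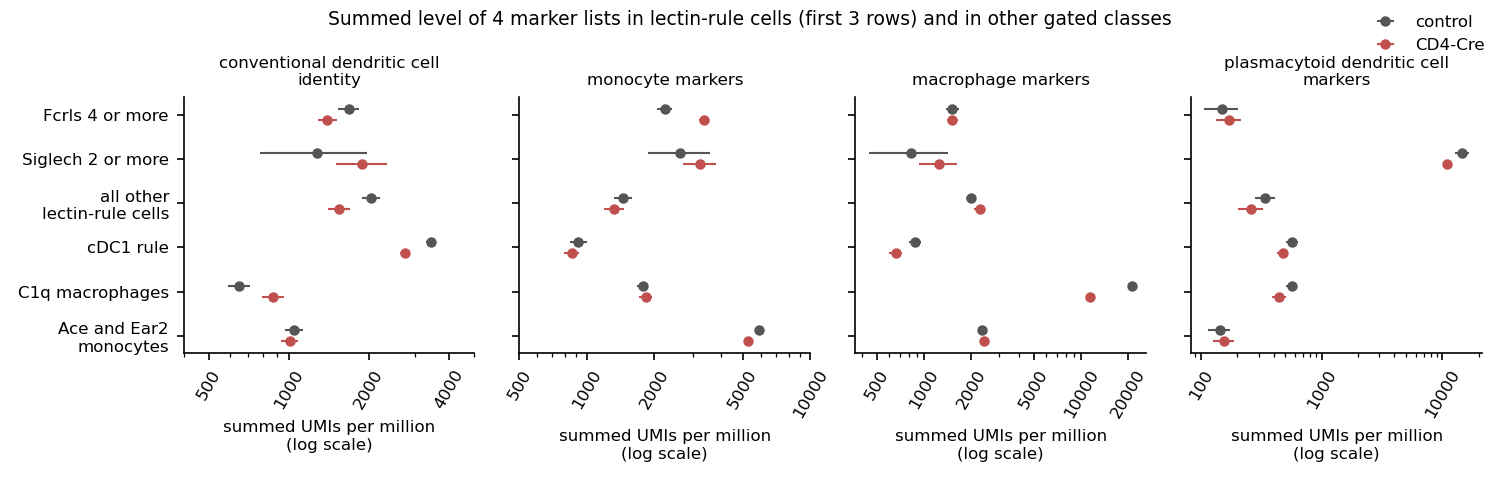
Summed CPM (log scale) of 4 marker lists in 3 subsets of lectin-rule cells and in 3 other gated classes, control in grey and CD4-Cre in red, with exact 95% Poisson intervals; Fcrls is left out of the macrophage list. The macrophage list is highest in C1q macrophages, at 21032 and 11464 CPM, and the plasmacytoid list in the Siglech cells, at 14554 and 11022 CPM.

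A small set of 3 control and 4 CD4-Cre members carried 2 or more UMIs of Siglech, a receptor of plasmacytoid dendritic cells, and was also set apart after its values were seen. They were shallower, with median depths of 4284 and 7669 UMIs, and had a median of 0 Lyz2 UMIs. Klk1, a kallikrein in the plasmacytoid list, stood at 3064 and 2750 CPM in them and at 0 and 3.60 CPM in the main remaining cells, though 1 control cell held 44 of the 48 control UMIs. The interferon-induced tetherin Bst2 was at 6894 and 3425 CPM, and Irf8, a transcription factor of plasmacytoid cells and cDC1, at 3575 and 2167 CPM. These 7 cells met the lectin limit with a median of 5 and 5.5 UMIs and no Mgl2. A UMI of Flt3 or Zbtb46 was found in 1 of the 3 control and 4 of the 4 CD4-Cre cells.

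Against C1q macrophages of the same libraries (77 control and 50 CD4-Cre barcodes with at least 10 C1q UMIs), lectin-rule cells had most macrophage markers and most chemokine ligands at lower levels, while H2-Oa, Dpp4, S100a4 and S100a11 were higher. The rule itself removed cells with C1q, so these are descriptions with no test. Of 3226 genes with at least 100 UMIs over the 4 sums, 82 (2.54%) were at least 2-fold higher in both libraries and 166 (5.15%) at least 2-fold lower. The median log2 ratio of these 3226 genes was 0.06 in each library. C1q macrophages were shallower, with medians of 7648 and 8080 UMIs.

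Slc27a3, an acyl-CoA synthetase, led when genes were ranked by the smaller of their 2 ratios. It was at 97.2 CPM in lectin-rule cells and 5.73 CPM in macrophages of the control, and at 91.5 and 4.02 CPM in CD4-Cre, with log2 ratios of 4.09 (2.65 to 6.01) and 4.51 (2.60 to 7.58). H2-Oa was at 226.8 against 25.8 CPM and 109.5 against 12.1 CPM. Napsa, an aspartic protease, was at 751.8 against 114.6 CPM and 658.5 against 142.6 CPM, with log2 ratios of 2.71 (2.37 to 3.07) and 2.21 (1.84 to 2.59). Dpp4, the peptidase CD26 of conventional dendritic cells, had log2 ratios of 2.24 and 2.82, and Cd209c of 3.58 and 2.52. Pglyrp1, a peptidoglycan-binding protein, had 5.38 and 2.18, and Ifitm6, an interferon-induced membrane gene, 2.18 and 2.12. Upb1, Slc46a3, Cygb, Itpr1 and Nup210 completed the 12, with ratios between 1.96 and 3.70.

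The 12 named genes on the lower side include macrophage receptors, surface proteins and lipid and selenium carriers. Apoe was at 6.48 CPM against 8057 CPM in the control and 165 against 4382 CPM in CD4-Cre. Trem2, a lipid-sensing receptor of macrophages, had 3 and 2 UMIs in lectin-rule cells, against 130.3 and 96.4 CPM in macrophages. The complement receptors C3ar1 and C5ar1 had log2 ratios of -5.81 (-8.87 to -3.93, from 2 UMIs) and -3.68, and of -5.72 and -3.64. Selenop, the plasma selenoprotein, was at 187.9 against 3309 CPM and 183.0 against 1917 CPM. Cd63, a tetraspanin of late endosomes, was absent from control members (0 UMIs against 903.6 CPM), where the floor of 3 counts gives a log2 ratio of -7.54 or lower, and had -4.60 in CD4-Cre. Igfbp4 had 3 and 0 UMIs. Ms4a7 had -6.89 (-9.94 to -5.02, from 2 UMIs) and -4.50, and Ms4a4a -5.93 (-8.22 to -4.36, from 3 UMIs) and -3.28. Serpinb6a, Itgb5 and Cd300ld3 had log2 ratios between -4.40 and -3.56.

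**Figure D3:**
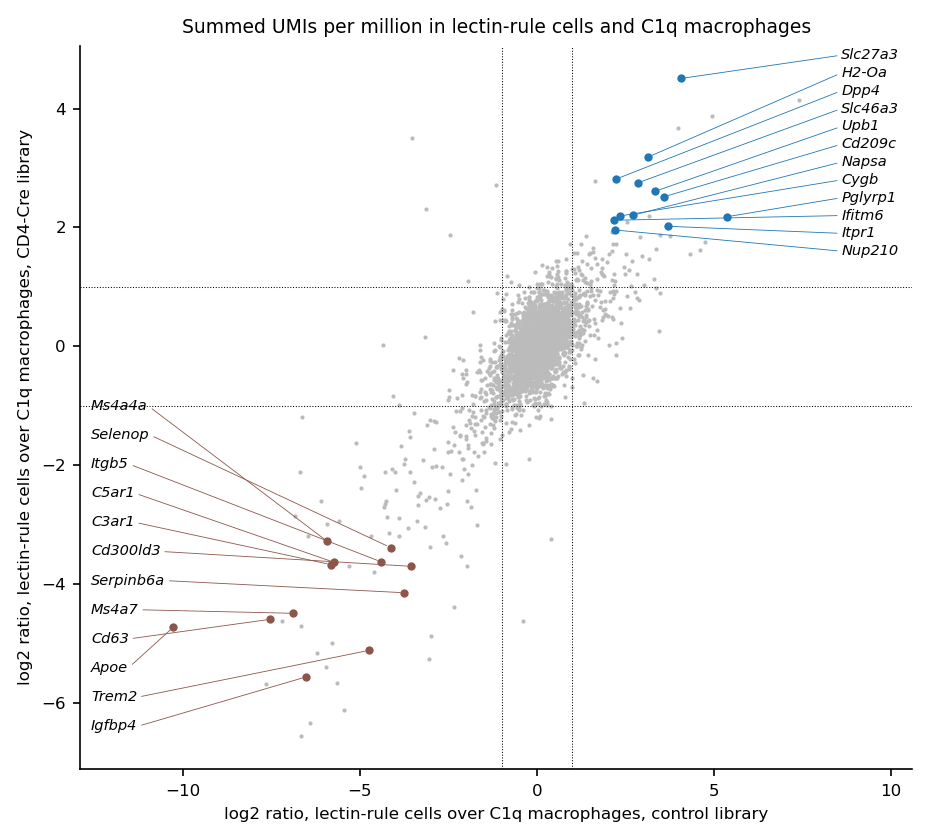
Each point is a gene with at least 100 UMIs over the 4 sums, placed by its log2 ratio of CPM in lectin-rule cells over C1q macrophages in the control library (horizontal) and in the CD4-Cre library (vertical); dotted lines mark 2-fold, and the 12 named genes on each side are labelled. Slc27a3 lies at 4.09 and 4.51 and Apoe at -10.28 and -4.73.

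By gene group, 19 of 23 measured macrophage markers were at least 2-fold lower in lectin-rule cells in both libraries, against the 5.15% of all genes, and 1 was higher, Fcrls, at 593.0 against 206.2 CPM and 748.6 against 299.3 CPM. The list's median log2 ratio was -4.14 and -3.19. The scavenger receptor genes Folr2, Lyve1 and Stab1 were at 0, and Mrc1, the mannose receptor, was lower by 1.21 and 1.11 on the log2 scale. The growth factor receptor Csf1r was detected, and was also lower, at 225.2 against 912.2 CPM in the control. Of 8 conventional dendritic cell genes with enough counts, 2 were higher, Dpp4 and Cd24a, and none lower (medians 1.05 and 0.57). Flt3, which fell short of 100 UMIs, stood at 45.4 and 47.1 CPM against 2.86 and 4.02 CPM in macrophages, and Zbtb46 at 72.9 and 44.4 CPM against 4.30 and 8.04 CPM.

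Of 16 chemokine ligands measured, 12 were lower in lectin-rule cells and 1 was higher (medians -2.50 and -1.84). Ccl8, Ccl12 and Cxcl13 had at most 1 UMI in either set of lectin-rule cells. Cxcl9, an interferon-gamma-induced T cell attractant, was at 269.0 against 771.9 CPM and 105.4 against 331.5 CPM. Ccl6 and Ccl9 did not reach 2-fold, at log2 ratios of -0.26 and 0.34 and of -0.12 and 0.17. Ccl17, a chemokine of mature dendritic cells, was the higher one, but 1 control cell held 92.1% of its UMIs and 1 CD4-Cre cell 64.9%. Il12b, a subunit of IL-12 and IL-23, had no UMI in lectin-rule cells of either library and stood at 117.4 and 58.3 CPM in macrophages. The tumour necrosis factor gene and Il1b did not reach 2-fold in both libraries.

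Antigen presentation genes differed in parts. Of 13 measured MHC class II pathway genes outside the rule, 1 was higher (H2-Oa) and 3 lower (the proteases Lgmn, Ctsb and Ctsd). Cd74, the invariant chain, had log2 ratios of 0.28 and 0.08, and H2-DMb2, a chain of the peptide exchange factor, 1.09 and 0.90. No MHC class I gene of 12 passed 2-fold in both. The lysosome list had 7 of 16 lower and none higher (medians -1.26 and -0.84). Of 11 S100, galectin and annexin genes and their companions, 2 were higher and none lower (medians 1.36 and 0.62). These were S100a4, at 469.9 against 108.8 CPM and 296.7 against 136.6 CPM, and S100a11, at 1298 against 330.8 CPM and 1137 against 423.9 CPM. All 10 exocrine genes of the pancreas that passed the count minimum, which encode digestive enzymes and other acinar products, were lower in lectin-rule cells, whose summed level was 374.3 and 518.5 CPM against 3365 and 2369 CPM in macrophages.

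Lectin-rule cells were 1.20% of kept pancreatic barcodes in the control (50 of 4168, exact interval 0.892 to 1.58) and 0.815% in CD4-Cre (54 of 6626, 0.613 to 1.06). The difference was -0.385 percentage points (-0.808 to -0.00502). Other denominators gave another picture. Among barcodes without Cd3 UMIs the shares were 3.23% and 2.69%, a difference of -0.535 points (-1.71 to 0.578). Among the 4 gated myeloid classes they were 20.4% (15.5 to 26.0) and 23.9% (18.5 to 30), so the direction turned, to 3.49 points (-4.00 to 11). C1q macrophages were at 1.85% and 0.755% of kept barcodes. T cells numbered 2284 in the control and 4047 in CD4-Cre. When barcodes with 2 or more B cell UMIs were left out, which also takes B cells from the denominator, the difference was -0.693 points (50 of 3097 and 46 of 4993).

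**Figure D4:**
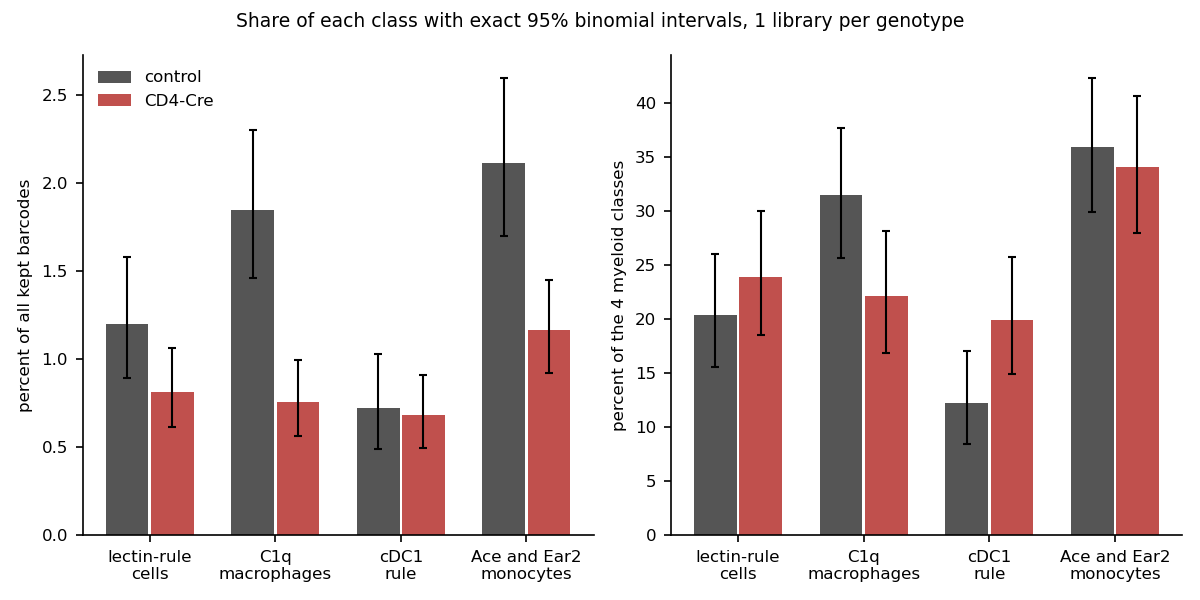
Bars give each gated class as a percent of all kept pancreatic barcodes (left) and of the 4 gated myeloid classes (right) in the control (grey) and CD4-Cre (red) library, with exact 95% binomial intervals. Lectin-rule cells are at 1.20% and 0.815% on the left and at 20.4% and 23.9% on the right, with overlapping intervals on both sides.

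Between genotypes, the lectin-rule cells of CD4-Cre had more transcript of Cd81, Lmna and F13a1, and less of Pglyrp1, Actn1, Pak1 and H2-Oa. Of the 1695 genes whose counts in the 2 libraries came to 100 UMIs or more, 74 (4.37%) were at least 1.5-fold higher in CD4-Cre and 65 (3.83%) at least 1.5-fold lower. The counting interval left out 0 for 72 and 65 of them. The median log2 ratio of all 1695 was 0.02. With 1 library per genotype, none of these can be told apart from differences between 2 preparations. Without the 8 cells with B cell UMIs, 69 genes were higher and 56 lower.

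Cd81, a tetraspanin, was at 92.4 CPM in the control (57 UMIs, 32% of cells) and 360.5 CPM in CD4-Cre (260 UMIs, 57.4% of cells). The log2 ratio was 1.96 (1.55 to 2.40), with 1.65 when the 8 cells were left out and 0.38 when the C1q limit was lifted. It was lower in CD4-Cre in cDC1 cells, at 273.5 and 129.7 CPM. Lmna, the nuclear lamin A/C gene, was at 72.9 and 226.0 CPM, in 34% and 57.4% of cells, and its log2 ratio of 1.63 (1.15 to 2.14) was 1.05 with no C1q limit. The coagulation factor gene F13a1, a marker of monocytes and macrophages, was at 59.9 and 158.0 CPM (1.40, 0.85 to 1.98), and the direction turned when the C1q limit was lifted, at a log2 ratio of -0.63. Ecm1 was at 90.7 and 227.4 CPM, and its log2 ratio of 1.33 was 0.53 when at least 5 lectin UMIs were asked for. Hopx was at 124.8 and 231.5 CPM, and its 0.89 became 0.52 under that setting and 0.48 within Fcrls cells. Both then fell short of 1.5-fold. Tubb2a, a beta-tubulin, was at 95.6 and 227.4 CPM. Metrnl, a secreted cytokine-like protein, was at 69.7 and 141.4 CPM, and the LIM-domain gene Lmo1 at 68.0 and 127.5 CPM, with a log2 ratio of 0.48 (-0.08 to 1.05) within Fcrls cells. The methionine adenosyltransferase gene Mat2a, Cd7, Cuta and the endocytic receptor gene Lrp1 had log2 ratios between 0.85 and 1.12, of which that of Lrp1 was 0.56 with at least 5 lectin UMIs.

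Pglyrp1 was the lowest, at 238.2 CPM in the control (147 UMIs) and 63.8 CPM in CD4-Cre (46 UMIs), and its log2 ratio was -1.90 (-2.41 to -1.41). Actn1, an actin cross-linker, was at 171.7 and 52.7 CPM (-1.70, -2.28 to -1.16), and the kinase gene Pak1 at 228.5 and 88.7 CPM (-1.36). Phf11b, an interferon-inducible gene model, was found in 76% of control and 38.9% of CD4-Cre cells, at 110.2 and 49.9 CPM. H2-Oa was at 226.8 and 109.5 CPM (-1.05, -1.47 to -0.64), though found in similar shares of cells, 48% and 44.4%. The phosphatase gene Acp5, Gngt2, Cd209c, Havcr2, Mcemp1, Tbc1d9 and Ssh2 had log2 ratios between -1.32 and -0.96.

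The genotype ratios were also taken within the Fcrls groups, where the counts are small. Pglyrp1 was lower in CD4-Cre among cells with under 4 Fcrls UMIs (145 and 25 UMIs, log2 ratio -2.45, -3.12 to -1.83) and higher among cells with 4 or more (2 and 21 UMIs, 2.85, 0.82 to 5.99). H2-Oa, Acp5 and Tbc1d9 were lower among cells with under 4 Fcrls UMIs, at -0.89, -1.33 and -1.42. Among cells with 4 or more they were at 1.63 (-0.64 to 4.88, from 2 and 9 UMIs), 0.72 (-0.39 to 1.95) and 0.59 (-0.50 to 1.76), so the direction turned and the counting intervals included 0. Actn1 had 0 and 7 UMIs there, a log2 ratio of at least 0.68 against the floor of 3 counts (the counting interval starts at -0.0123), and -1.68 in the other cells. Tubb2a was at 1.39 with Fcrls and at -0.0536 (-1.03 to 0.91) without. Cd81 was higher in both groups, at 1.72 with Fcrls and 2.07 without, and so was Lmna, at 1.15 and 2.72. Pak1 was lower in both, at -1.39 and -1.13, and so was Phf11b, at -1.09 and -1.04. The Fcrls group made up 40% of control and 44.4% of CD4-Cre members.

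**Figure D5:**
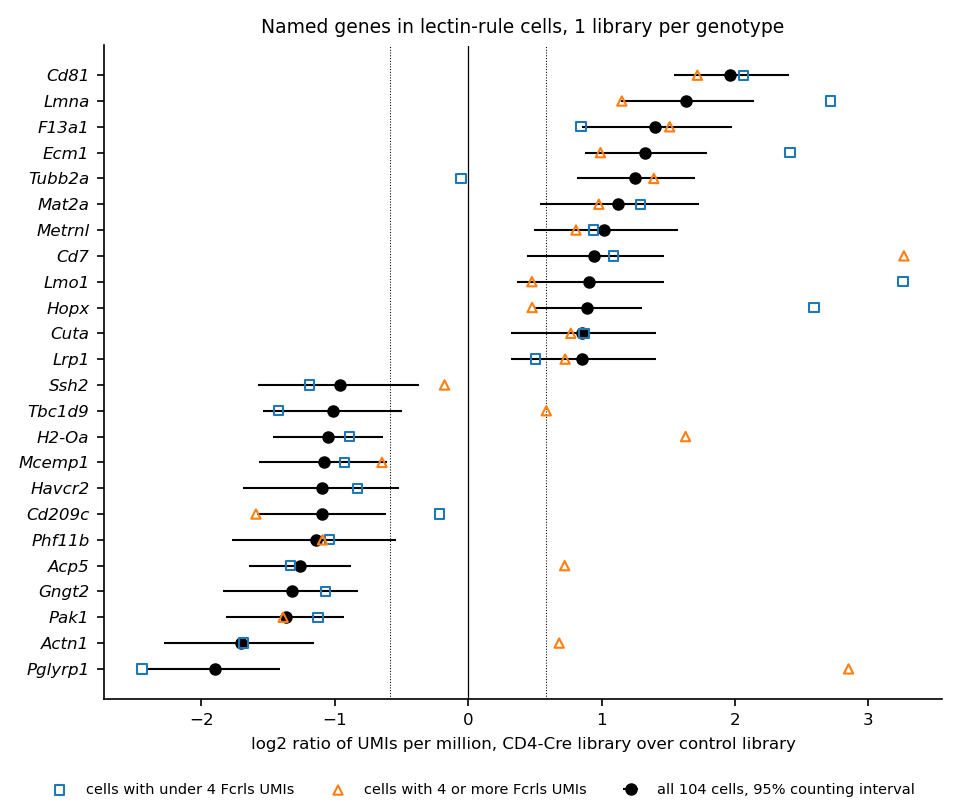
Log2 ratio of CPM, CD4-Cre over control, for the 12 highest and 12 lowest named genes in lectin-rule cells (black circles, 95% counting interval), and in the cells with under 4 (squares) and with 4 or more (triangles) Fcrls UMIs; dotted lines mark 1.5-fold. Pglyrp1 is at -1.90 over all cells and at 2.85 in the Fcrls group, while Cd81 is above 1.5-fold in each; Gngt2 and Havcr2 have too few counts for a triangle.

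Counts by gene group between genotypes stand beside 4.37% higher and 3.83% lower over all genes, here and in the next paragraphs. The conventional dendritic cell list had 3 of 8 measured genes at least 1.5-fold lower in CD4-Cre and none higher (median -0.48). They were the transcription regulators Id2, at 503.9 and 331.3 CPM, and Relb, at 95.6 and 56.8 CPM, and Dpp4, at 115.0 and 70.7 CPM. Flt3 hardly differed, at 45.4 and 47.1 CPM, and Batf3 had a log2 ratio of 0.11 (-0.21 to 0.44). The summed list had a log2 ratio of -0.32 (-0.45 to -0.20), and of -0.23 (-0.35 to -0.10) without the 8 cells with B cell UMIs. The fall was not particular to lectin-rule cells, since cDC1 cells were at -0.32 (-0.41 to -0.23). Ace and Ear2 monocytes were at -0.06 (-0.21 to 0.10) and C1q macrophages at 0.43 (0.24 to 0.63), the opposite way. The list of mature migratory dendritic cells had 3 of 5 lower, namely Relb, which is in both lists, Ccl17 and Epsti1. Its sum, which holds the Ccl17 UMIs, had a log2 ratio of -0.33 (-0.50 to -0.16). It was at -0.59 in the main remaining cells and 0.37 (0.08 to 0.67), the opposite way, in Fcrls cells. The call for Ccl17 rests on 1 control cell with 139 of 151 UMIs. Without that cell the counts were 12 and 77 and the log2 ratio turned to 2.42 (1.54 to 3.44), and without the top cell of each library it was 0.93 (-0.10 to 2.05). Ccl17 was found in 3 of 50 control and 7 of 54 CD4-Cre members. The list of costimulatory and inhibitory ligands had 1 of 4 lower. This was Havcr2, the inhibitory receptor.

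The summed interferon lists were lower in CD4-Cre. The 19 genes of the interferon-gamma list summed to 1259 CPM in the control and 825 CPM in CD4-Cre. Their log2 ratio was -0.61 (-0.77 to -0.45), and -0.59 without the 8 cells. The 5 measured singly were all below 0, with a median of -0.46, and 1 passed 1.5-fold. This was Cxcl9, at 269.0 and 105.4 CPM, of which 1 control cell held 53.6%. Without that cell its log2 ratio was -0.27 (-0.75 to 0.20), short of 1.5-fold, and without the top cell of each library -0.98. The summed list holds these Cxcl9 UMIs and was not taken without the top control cell. Gbp2, Irf1, Gbp3 and Ciita were at log2 ratios of -0.26, -0.41, -0.51 and -0.46. The type I interferon list, with 2 genes measured singly, summed to 920.3 and 658.5 CPM, a log2 ratio of -0.48 (-0.66 to -0.30). It was at -0.80 in the main remaining cells, -0.15 (-0.61 to 0.32) in Fcrls cells and 0.66 (0.50 to 0.81), the opposite way, in cDC1 cells. In C1q macrophages this list was also lower in CD4-Cre, at 1184 and 741.3 CPM, so the fall was not particular to lectin-rule cells. The interferon-gamma list was at -0.50 in Fcrls cells and -0.45 in the main remaining cells. It was also lower in CD4-Cre in C1q macrophages (-0.52) and in Ace and Ear2 monocytes (-0.38), and higher in cDC1 cells (0.17), a difference between classes that was not tested. MHC class I genes followed in part, with 2 of 12 lower, Psmb9 and Tap1, 9 of 12 below 0 and a median of -0.19.

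MHC class II pathway genes outside the rule had 1 of 10 higher (Ctsd), 1 lower (H2-Oa) and a median of -0.00193. Cd74 was at a log2 ratio of -0.02 (-0.04 to 0.00) and H2-DMa at 0.03. The related H2-Ob was at 47.0 and 40.2 CPM. The monocyte list had 2 of 7 higher, F13a1 and Fn1, and 1 lower, Ms4a4c. Its sum was 1832 and 2561 CPM, a log2 ratio of 0.48, and 0.32 without the 8 cells, but its median over single genes was -0.0160, with 4 of 7 below 0. In Fcrls cells the sum had a log2 ratio of 0.59 (0.45 to 0.73) and in the main remaining cells -0.14 (-0.34 to 0.06). Most of the summed difference was Fn1, at 392.1 and 1104 CPM, with 23.2% of CD4-Cre UMIs in 1 cell. Of 5 chemokine ligands measured, Ccl6 was higher, at 1687 and 2992 CPM, and Cxcl16 lower, at 137.7 and 74.9 CPM. Ccl17 and Cxcl9 also passed as lower, subject to the single control cells given for each. Lyz2 was at 8846 and 11317 CPM, a log2 ratio of 0.36, short of 1.5-fold.

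The plasmacytoid list had 2 of 3 measured genes higher, Tcf4 and Klk1, against 4.37% of all genes. Its median was 0.80 and its sums 615.7 and 849.9 CPM. The sum was lower in CD4-Cre within the Siglech cells, at a log2 ratio of -0.40, and within the main remaining cells, at -0.39. Klk1 was at 0.20 (-0.36 to 0.78) without its top CD4-Cre cell. Without the top cell of each library it was at 3.77 (2.35 to 5.69, from 4 and 64 UMIs). None of 4 chemokine receptors, 4 toll-like receptor genes, 2 cytokine genes or 4 Fc receptors passed, and Ccr2, which guides monocytes and cDC2 out of blood, was at 520.1 and 514.4 CPM. Of 15 immediate early genes, Egr1 was higher, Egr2 lower, and the median was 0.25. The transcription factor Cebpb was higher, at 160.4 and 244.0 CPM. No cell cycle gene of 4 passed 1.5-fold, but all 4 were above 0 (median 0.47) and the list summed to 1766 and 2464 CPM, a log2 ratio of 0.48 (0.37 to 0.59). The sum was at 0.75 in Fcrls cells and 0.00704 in the main remaining cells, and 83.3% of the 24 Mki67 UMIs in CD4-Cre were in 1 cell. The S100 and related list had Vim higher (1990 and 3045 CPM) and S100a4 lower (469.9 and 296.7 CPM).

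The pancreatic lymph node libraries were made from magnetically selected CD3 T cells of 5 mice aged 8 weeks per genotype. In Ocabfl/fl, 3 of 2918 kept barcodes met the same rule. In Ocabfl/fl.CD4Cre it was 0 of 5645, with an exact interval that ends at 0.0653%. The 3 had 1175 to 6563 UMIs and no Fcrls UMI. Cells without CD3 were selected against in these libraries, so the values do not describe the node.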

How the data were processed

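Single-cell libraries were made with a 10x Genomics 5′ kit, per the labels' protocols. The deposited values are UMI counts per gene and barcode, whole numbers with no normalization. Cell Ranger and mm10 are named in the submitters' processing notes, and the matrix headers give software version 3.0.0, per the file headers. The annotation behind the counts is not given in the sources used here, and gene positions are from GENCODE M21. The members, gene lists and rules were chosen with earlier results of these data known.

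Barcodes with at least 500 genes and at most 10% mitochondrial UMIs were kept. No doublet caller was run, and barcodes with 2 or more UMIs of B cell markers, or over 3 times the median depth of the members of their library, were left out as alternatives. UMIs were summed over the cells of a class and scaled to CPM, and log2 ratios were formed. A count of 0 was set to 3 counts. Shares have exact Clopper-Pearson intervals, share differences Newcombe intervals, sums exact Poisson intervals and ratios exact conditional binomial intervals, all at 95% and for counting error only. With 1 library per group no test was made and no p-value is given. C1q macrophages had at least 10 C1q UMIs, no Cd3, Xcr1 or Clec9a UMI and fewer than 2 of Ace and Ear2. cDC1 cells had at least 2 UMIs of Xcr1 and Clec9a with the other limits of the rule, and Ace and Ear2 monocytes at least 2 of those genes.

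Genes needed 100 UMIs over the sums compared. Genes were named by ratio, 12 in each direction, where the interval left out 0 and no cell held over 20% of the UMIs in the higher group. At least 10% of the cells of that group had to hold a UMI. The level there had to be at least 0.5 times that of other pancreatic barcodes. Against macrophages these limits applied in both libraries. Genes of the rule, immunoglobulin, T cell receptor, haemoglobin, mitochondrial, ribosomal, exocrine and islet genes and unnamed models were left out. Members of the 35 gene lists are named within their list. Amica1, Cxx1a, H2-Ea-ps, Ifi30, Cd58, Clec7a and Mx2 were not analysed here, and results on a few other genes are not reported here. The calls were also run on simulated counts with counting error only. Those counts hold no spread between cells or animals, so they do not show how the calls behave under such spread. Python 3.11.15, scipy 1.17.1, R 4.3.3, edgeR 4.0.16 (TMM sizes) and DESeq2 1.42.0 (size factors) were used, the last 2 for alternative scaling of the counts.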

Additional observations from a re-analysis of the deposited data

Results flagged for a closer look

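Of the genes measured against C1q macrophages, 5 were at least 2-fold apart in opposite directions in the 2 libraries, and the difference between libraries was not tested. Cd79a, a signalling chain of the B cell receptor, had log2 ratios of lectin-rule cells over macrophages of -3.52 (-8.93 to -0.79, from 1 UMI) in the control and 3.51 in CD4-Cre. Its partner Cd79b had -3.14 (-5.50 to -1.46, from 3 UMIs) and 2.31, and the immunoglobulin light chain gene Igkc -1.14 (-4.54 to 1.47, from 2 UMIs) and 2.72. All 3 are genes of B cells, and 8 CD4-Cre members carried B cell UMIs. Without barcodes of 2 or more B cell UMIs the median log2 ratio of the B cell list over macrophages in CD4-Cre was -1.41. Lyz1, the lysozyme copy of Paneth cells and some monocytes, had -1.94 and 1.10. Its UMIs were 106 in control members, 92.5% of them in 1 cell, and 1463 in CD4-Cre members, 29.0% in 1 cell, and reads may be split between Lyz1 and Lyz2. Cd209b, another lectin of the Cd209 cluster, had -2.46 and 1.88, from 14 and 16 UMIs in members, of which 1 cell held 64.3% and 68.8%. CD4-Cre macrophages had no Cd209b UMI, so the 1.88 is a lower bound that rests on a floor of 3 counts.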

How the results depend on the processing

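No paired analysis was possible because each genotype has 1 pancreas library and the labels give no replicate numbers, and for the same reason no replicate could be left out. No lectin-rule cell exceeded 3 times the median depth of the lectin-rule cells of its own library, so that alternative left out none and bears on nothing. The share difference turned to 3.49 points with the 4 myeloid classes as denominator. With at least 50 UMIs, 234 genes were higher and 220 lower in CD4-Cre, and 146 were higher than in macrophages. With at least 300 UMIs these counts were 14, 10 and 21, with 65 lower than in macrophages. Fewer or more genes enter each of these counts by construction. Equal weight for each barcode gave 135 genes higher than in macrophages, for which the cause was not tested.

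Alternatives chosen after seeing the data include those of this paragraph and the values without the top cell of Ccl17, Cxcl9 and Klk1 given above. The others lifted the Ace and Ear2 limit, lifted the Cd3 limit or left out members with 2 or more Siglech UMIs. A last one kept only members and macrophages with under 4 Fcrls UMIs. With no C1q limit, which adds 41 control and 33 CD4-Cre barcodes, the share difference was -0.870 points, 133 genes were lower in CD4-Cre and F13a1 was at -0.63. Members with under 4 Fcrls UMIs gave 44 genes higher and Tubb2a at -0.0536. Members with 4 or more gave 40 higher and 22 lower, with Pglyrp1 at 2.85, Actn1 at 0.68 or more (a bound from 0 control UMIs), Acp5 at 0.72, H2-Oa at 1.63 and Tbc1d9 at 0.59. Fewer genes reach the UMI minimum there, 803 and 835.

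Some list medians changed sign. The B cell list over control macrophages was 1.19 with 1 lectin UMI allowed. Without barcodes of 2 or more B cell UMIs it was -0.31 between genotypes and -1.41 over CD4-Cre macrophages. Chemokine ligands between genotypes were at 0.23 with at least 5 lectin UMIs. The plasmacytoid list over macrophages was -1.34 and -0.23 with at least 50 MHC class II UMIs. Under settings chosen after seeing the data, the cDC1 list over control macrophages was -0.0641 with no Ace and Ear2 limit. The NK list over CD4-Cre macrophages was 0.50 with no Cd3 limit, a setting also chosen then. Under the planned settings, 285 of 288 named genotype values and 290 of 312 named macrophage values stayed inside their counting intervals or within 1.5-fold, and none of the 288 and 312 changed sign. The depth limits single genes to those with about 100 UMIs in 104 cells.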
